A study of Nasonia vitripennis with 23 samples.

Results

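Heads of *Nasonia vitripennis* females that had oviposited alone were compared with heads of females that had oviposited in the company of any co-foundresses, whatever their number. The alone side held 7 single-foundress libraries. The other side held 15 libraries, of which 7 came from five-foundress and 8 from ten-foundress groups, so that 22 of the 23 libraries of the study were used. Single-foundress replicate 2 was left out, as the study did because it was an outlier in a principal component plot. It also had the lowest share of mapped reads of all libraries. Focal females on both sides were of the AsymC strain, which has wild-type eyes and was cured of Wolbachia, and all had 3 hosts and 3 h in which to explore and oviposit. In the five-foundress groups a focal female shared the hosts with 4 females of the red-eye strain STDR, and in the ten-foundress groups with 9. Only the focal females, told apart by eye colour, gave RNA. Each library was made from polyA RNA of 12 pooled heads, so the pool was the unit of replication, and all pools came from one laboratory strain. Co-foundresses were always of the other strain, so that the presence of other females and the presence of STDR females cannot be told apart. The study balanced the set-up over 3 days, but the sources do not give the day on which a pool was set up, so no term for day was fitted. The p-values measure the spread between these pools.

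*Nasonia* is a parasitoid wasp that lays its eggs on fly pupae. Like other Hymenoptera it is haplodiploid: a fertilised egg becomes a daughter and an unfertilised one a son, so a mother can set the sex ratio of her brood. Where several mothers lay on one patch of hosts, their sons compete for mates with the sons of other females, and theory on local mate competition predicts that each mother should then lay a larger share of sons. The head holds the brain, the antennal and optic lobes that take up smell and sight, the compound eyes and antennae, together with fat body, muscle, glands and cuticle. A change in the head's RNA can therefore come from any of these tissues, and in bulk samples fewer cells of a type and less RNA per cell cannot be told apart.

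Gene counts summed to 27953555 to 44849128 reads in lone libraries (median 32164140), 25194329 to 69696501 (median 38984696) in five-foundress and 29308446 to 51134453 (median 34615440) in ten-foundress libraries. Of the genes in the table, 12275 to 12774 had reads in a given library. A gene with 0 counts could have up to 0.0450 to 0.121 CPM (counts scaled to a common library size), the level of 3 counts, which covers counting error only. No 2 libraries of a group were alike within counting noise, with a chi-square per gene of at least 31.3 over 77 pairs. Markers of neurons (*Syt1*, which encodes the calcium sensor of synaptic vesicles, and *Para*, the voltage-gated sodium channel) and of photoreceptors (the long-wavelength opsin *Lop1*) were present in all 22 libraries. The summed level of the 2 neuronal markers was 239 to 384 CPM alone (median 279.9), 279 to 365 CPM (median 332) in five-foundress and 275 to 379.7 CPM (median 344) in ten-foundress pools. For *Lop1* the medians were 9411, 8725 and 8411 CPM. The hexamerins *Hex109*, *Hex70b* and *Hex83*, storage proteins of the fat body, summed to medians of 16.7, 19.1 and 15.5 CPM. The tropomyosins *Tm1* and *Tm2* of muscle summed to medians of 635, 651 and 554 CPM. Of the markers of germline and dividing cells, *nanos* and *cycB* were near 0, with medians of 0.0586 to 0.136 and 0.105 to 0.150 CPM, and *oskar* had medians of 12.2, 10.6 and 10.0 CPM. None of these 11 markers had an unadjusted p below 0.05 between alone and accompanied females.

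Very few genes separated females that were alone from females in company. In edgeR's quasi-likelihood test 2 of 13599 genes (0.0147%) passed an adjusted p of 0.05. Both were lower with co-foundresses (again 0.0147%), both had few reads, and 0 genes (0%) were higher. DESeq2 called 1 gene, another one, *CYP314A1*, and limma-voom called 0. Without adjustment 369 genes (2.71%) had a p below 0.05 in edgeR, of which 157 (1.15% of all genes) were higher and 212 (1.56%) lower with co-foundresses. If no gene differed and p-values were evenly spread, a share of about 0.05 of all genes would be marked, which is more than was found. Genes described below by an unadjusted p are therefore not called as changed. In 0 genes (0%) did the 7 and the 15 libraries not overlap at all.

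The gene with the smallest p was *LOC103316497*. The count table gives only this placeholder symbol for it, as for many of its genes, and no role is stated here for genes listed in that way. Alone, the 7 libraries held 11, 3, 5, 7, 6, 7 and 6 of its reads. The five-foundress libraries held 2, 4, 4, 3, 2, 1 and 5, and the ten-foundress libraries 3, 3, 2, 3, 2, 2, 2 and 1. In CPM, the alone libraries lay between 0.0775 and 0.331 (median 0.195), the five-foundress libraries between 0.0403 and 0.146 (median 0.0722) and the ten-foundress libraries between 0.0330 and 0.102 (median 0.0573). All 15 accompanied libraries were below the alone median and 5 of the 7 alone libraries were above every accompanied one, while replicates 3 and 4 overlapped them. The log2 fold change was -1.47 with co-foundresses relative to alone (SE 0.26, edgeR adjusted p = 0.0412, two-sided exact permutation p = 7.04e-05 over the 170544 ways to choose 7 of 22 libraries). The permutation p is unadjusted for the number of genes, and the gene was picked on the same values, so it is a description and not separate support. It was -1.36 (SE 0.30) against five-foundress and -1.60 (SE 0.31) against ten-foundress pools. The call kept an edgeR adjusted p below 0.05 when single-foundress replicate 3, 4 or 5 or five-foundress replicate 12 or 13 was left out, and lost it when any of the other 17 libraries was left out (range over the 22 fits 0.00545 to 0.251). With 1 to 11 reads per library the size of the change is not firm, and the library left out of the comparison, single-foundress replicate 2, held 0 reads of it.

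The other gene past the threshold, *LOC103318011*, rested on few libraries. Its reads alone were 0, 35, 0, 1, 18, 3 and 2, against 1, 0, 2, 0, 2, 3 and 0 in five-foundress and 0, 0, 0, 1, 0, 1, 2 and 1 in ten-foundress libraries. Single-foundress replicates 3 and 6 held most of the reads, and the other alone libraries lay within the range of the accompanied ones. The log2 fold change was -3.29 (SE 0.65, edgeR adjusted p = 0.0483), and the two-sided exact permutation p, likewise unadjusted, was 0.0371. With limma-voom the log2 fold change was -1.80. Without replicate 3 it was -2.31 with an edgeR adjusted p of 0.937, and without replicate 6 it was -2.95 with an edgeR adjusted p of 0.697. The adjusted p stayed below 0.05 in 4 of 22 fits that left out 1 library (single-foundress replicate 1, 4 or 5 or five-foundress replicate 15).

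**Figure D1:**
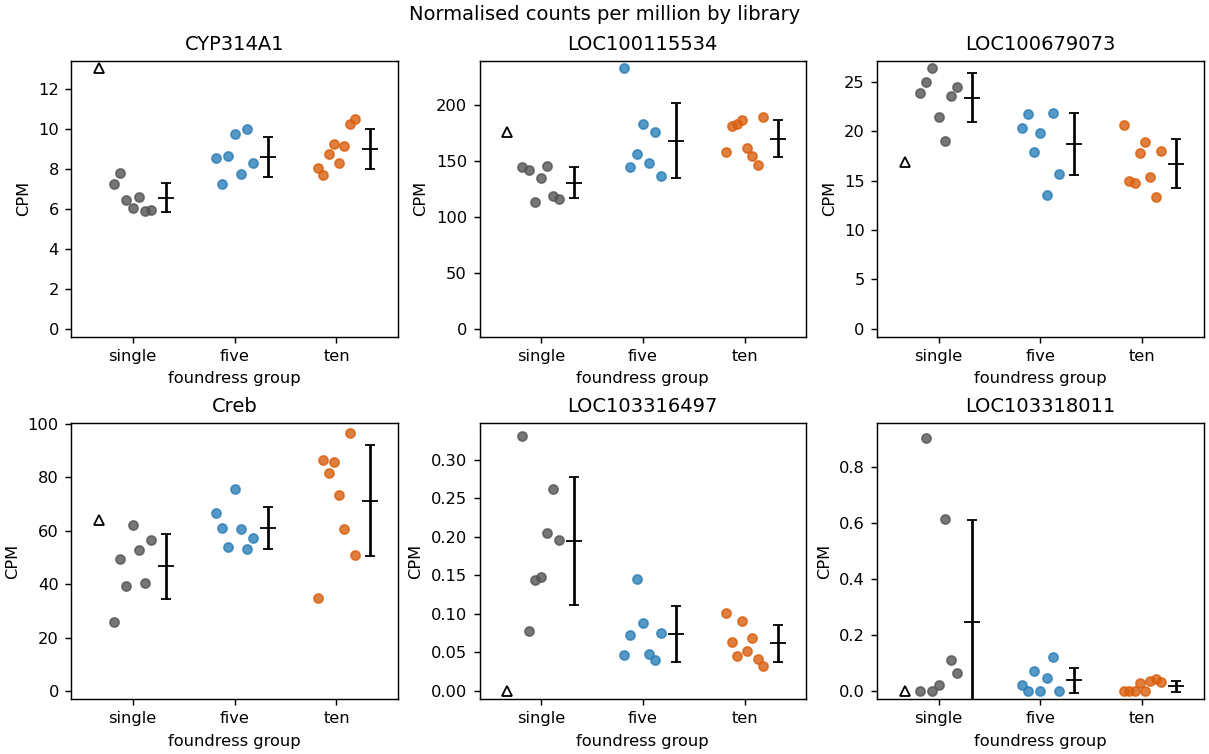
Level of 6 genes in each library in CPM, by group on the x axis. Dots are libraries, black bars the mean ± SD of a group, cut at the axis where they would fall below 0, and open triangles single-foundress replicate 2, which was left out. *CYP314A1* lay between 5.87 and 7.77 CPM alone and between 7.24 and 10.5 CPM in company, with 12 of 15 accompanied libraries above every lone one, whereas 2 lone libraries carried the difference in *LOC103318011*.

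*CYP314A1* had the smallest p among the genes that were higher with co-foundresses and the third smallest of all genes. It encodes the ecdysone 20-monooxygenase, called shade in *Drosophila*, which turns ecdysone into the active moulting hormone 20-hydroxyecdysone in the last step of its synthesis. In adult insects this hormone is known for its part in egg maturation and, in *Drosophila*, in memory and sleep. Alone, its level was 5.87 to 7.77 CPM with a median of 6.45 and a mean of 6.56 ± 0.713 (SD, n = 7). In company it was 8.80 ± 0.986 (SD, n = 15), with 7.24 to 9.99 CPM (median 8.53) in five-foundress and 7.68 to 10.5 CPM (median 8.95) in ten-foundress pools. All 15 accompanied libraries were above the alone median and 12 of them above every alone library, so that the groups overlapped in few pools. Its log2 fold change of 0.42 (SE 0.090) did not pass the threshold in edgeR (unadjusted p = 9.09e-05, adjusted p = 0.412), whereas DESeq2 gave 0.41 (SE 0.085) with an adjusted p of 0.0163. The two-sided exact permutation p was 4.1e-05, unadjusted for the number of genes. The gene was chosen for description because the study names it and with its earlier results known. In the study's DESeq2 tests it had the lowest adjusted p between single- and ten-foundress pools, but missed the study's threshold. The study called no gene in any pair of groups or across all groups, and describes no test that pooled both group sizes. Against lone pools the difference was 0.39 (SE 0.10) in five-foundress and 0.45 (SE 0.10) in ten-foundress pools, and between these sizes it was 0.07 (SE 0.10, edgeR unadjusted p = 0.515). With each library left out in turn the log2 fold change stayed between 0.39 and 0.45 and the edgeR adjusted p between 0.245 and 0.999. Single-foundress replicate 2 had 13.0 CPM, more than any of the 22 libraries, and with it included the log2 fold change was 0.24 with an edgeR adjusted p of 0.982.

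The receptor that binds the product of this enzyme did not separate the groups. *Ecr*, which encodes the ecdysone receptor, had 2.22 to 13.7 CPM alone (median 7.72), 4.37 to 23.2 CPM in five-foundress (median 7.74) and 3.66 to 26.7 CPM in ten-foundress pools (median 6.09). The ranges overlapped almost wholly, with 3 of 15 accompanied libraries above every alone one. The fitted difference of 0.43 on the log2 scale was about as large as that of *CYP314A1*, but its SE was 0.39 (edgeR adjusted p = 0.954). It was 0.26 without ten-foundress replicate 18 and 0.27 without single-foundress replicate 1, 0.18 with limma-voom and 0.12 with all 23 libraries.

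The question of presence, and not of number, also asks whether a gene moved the same way in both group sizes. Of the 369 genes with an unadjusted p below 0.05, 368 (2.71% of all genes) had the same sign against single-foundress pools in five- and in ten-foundress pools, 156 of them higher and 212 lower. The exception was *SP48*, a serine protease, with a log2 fold change of -1.24 in five-foundress and 5.80 in ten-foundress pools. It averaged 11.1 counts per library, and its combined log2 fold change was 4.85 (SE 2.03, edgeR adjusted p = 0.954), so the size is not firm. The five- and ten-foundress contrasts share the 7 single-foundress libraries, and the combined test averages over both sizes, so agreement is fixed in part by the design. Over all genes 9706 (71.4%) had the same sign in both. Taken alone, the five-foundress contrast had 240 genes (1.76%) and the ten-foundress contrast 433 genes (3.18%) with an unadjusted edgeR p below 0.05, while ten- against five-foundress pools gave 246 (1.81%). In each of these 3 contrasts 0 genes (0%) passed an adjusted p of 0.05 in edgeR, with a smallest adjusted p of 1 for five-foundress and 0.212 for ten-foundress against single-foundress pools. DESeq2 also called 0 in each, and limma-voom called 3 in the ten-foundress contrast and 0 in the others. An unadjusted p below 0.05 in each group size with the same sign was found in 78 genes (0.574%), of which 42 were higher and 36 lower. Of the 368 agreeing genes, 6 (1.63%) had an unadjusted p below 0.05 between ten- and five-foundress pools, against 1.81% over all genes, and 0 of the 78 did. In 225 of the 368 the fitted difference from lone pools was the larger one in ten-foundress pools. The same share over all genes was not computed. More genes had an unadjusted edgeR p below 0.05 in the ten-foundress contrast (433) than in the five-foundress contrast (240). The count of 225 is therefore not read as a trend with group size.

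Most of these differences were small. Of 9301 genes that averaged 100 counts or more per library, 172 (1.85%) were among the agreeing genes, 82 higher and 90 lower with co-foundresses. Their log2 fold changes had a median size of 0.29 and ran from 0.13 to 3.13, and 10 of them were larger than 1. Over all genes of that abundance the median size was 0.09 and the median SE 0.13. The 172 genes were picked by their p on the same values, so a larger median size follows from the choice.

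**Figure D2:**
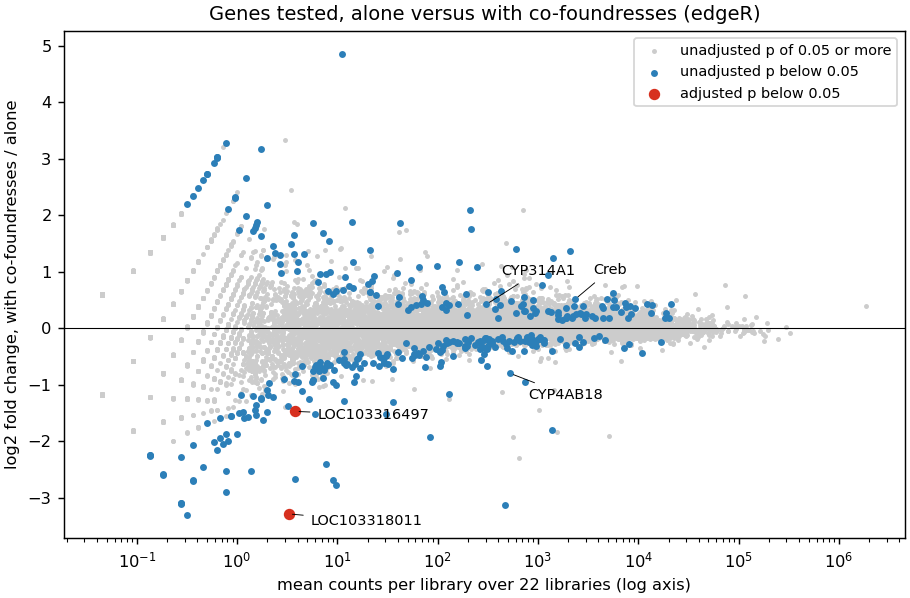
Log2 fold change with co-foundresses relative to alone on the y axis against the mean counts per library on a log x axis, for 13599 genes. Blue points are the genes with an unadjusted edgeR p below 0.05 and red points the 2 with an adjusted p below 0.05, both of which lie below 0 at a mean of 3.27 and 3.82 counts per library.

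Beyond *CYP314A1*, 9 other genes with at least 100 counts were named as higher by the smallest p. All 9 missed the threshold in edgeR (adjusted p 0.781 to 0.954), and all carry placeholder names. *LOC100115534* had 114 to 145 CPM alone (median 135), 137 to 233 CPM (median 156) in five-foundress and 147 to 189 CPM (median 171) in ten-foundress pools. In company 13 of 15 libraries were above every lone one, more than for any other named gene. Its log2 fold change was 0.37 (SE 0.092, edgeR adjusted p = 0.781), with 0.36 in five- and 0.38 in ten-foundress pools. *LOC100121942* had 69.1 to 132 CPM alone (median 100.2), 115 to 187 CPM (median 146) in five- and 92.7 to 163 CPM (median 146) in ten-foundress pools. Here 10 of 15 accompanied libraries were above all lone ones and 14 above their median, and the log2 fold change was 0.51 (SE 0.13, edgeR adjusted p = 0.781). With single-foundress replicate 2 included it was 0.50 with an edgeR adjusted p of 0.0269. *LOC100121683* had 377 to 481 CPM alone (median 413), 433 to 553 CPM (median 522) in five- and 450.2 to 663 CPM (median 531) in ten-foundress pools. All 15 accompanied libraries were above the alone median and 12 above every alone library, for a log2 fold change of 0.26 (SE 0.080). *LOC100679337* had the largest difference of the 10, 0.62 (SE 0.19), with 67.0 to 155 CPM alone against 88.4 to 249 CPM in ten-foundress pools, and 9 of 15 accompanied libraries above every lone one. The other 5 genes were *LOC100120589*, *LOC100121496*, *LOC100121344*, *LOC100679411* and *LOC100122780*, with log2 fold changes of 0.22 to 0.39, and in each the groups overlapped.

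Of the 10 genes named as lower, *LOC100679073* had the smallest p. It had 19.1 to 26.5 CPM alone (median 23.9), 13.5 to 21.9 CPM (median 19.8) in five-foundress and 13.3 to 20.7 CPM (median 16.6) in ten-foundress pools. All 15 accompanied libraries were below the alone median and 10 below every alone library. This gave a log2 fold change of -0.41 (SE 0.10, edgeR adjusted p = 0.781), with -0.32 in five- and -0.49 in ten-foundress pools. A single library decided the value of *LOC100115083*, which had 2.21 to 20.9 CPM alone (median 3.70), 2.07 to 3.87 CPM (median 2.55) in five- and 1.98 to 4.14 CPM (median 2.42) in ten-foundress pools. Single-foundress replicate 6 alone stood at 20.9 CPM. Its log2 fold change was -1.16 (SE 0.30) with that library and -0.39 without it, and -0.35 in DESeq2 with it. *CYP4AB18*, a cytochrome P450 of the CYP4 family, had 10.3 to 42.5 CPM alone (median 17.2), 6.86 to 18.7 CPM (median 13.8) in five- and 7.18 to 18.7 CPM (median 10.9) in ten-foundress pools. In it 2 alone libraries were above every accompanied one and 13 of 15 accompanied libraries were below the alone median. Its log2 fold change was -0.80 (SE 0.24, edgeR adjusted p = 0.954), and -0.46 with limma-voom. *LOC100118011* had 3.01 to 6.27 CPM alone against 2.19 to 4.08 CPM in ten-foundress pools, with all 15 accompanied libraries below the alone median and a log2 fold change of -0.49 (SE 0.14). The other 6 (*LOC100118996*, *LOC100123782*, *LOC100679819*, *LOC100123975*, *LOC100115374* and *LOC100679109*) had log2 fold changes of -0.21 to -0.56. Between ten- and five-foundress pools the unadjusted p of the 20 genes lay between 0.103 and 0.990.

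**Figure D3:**
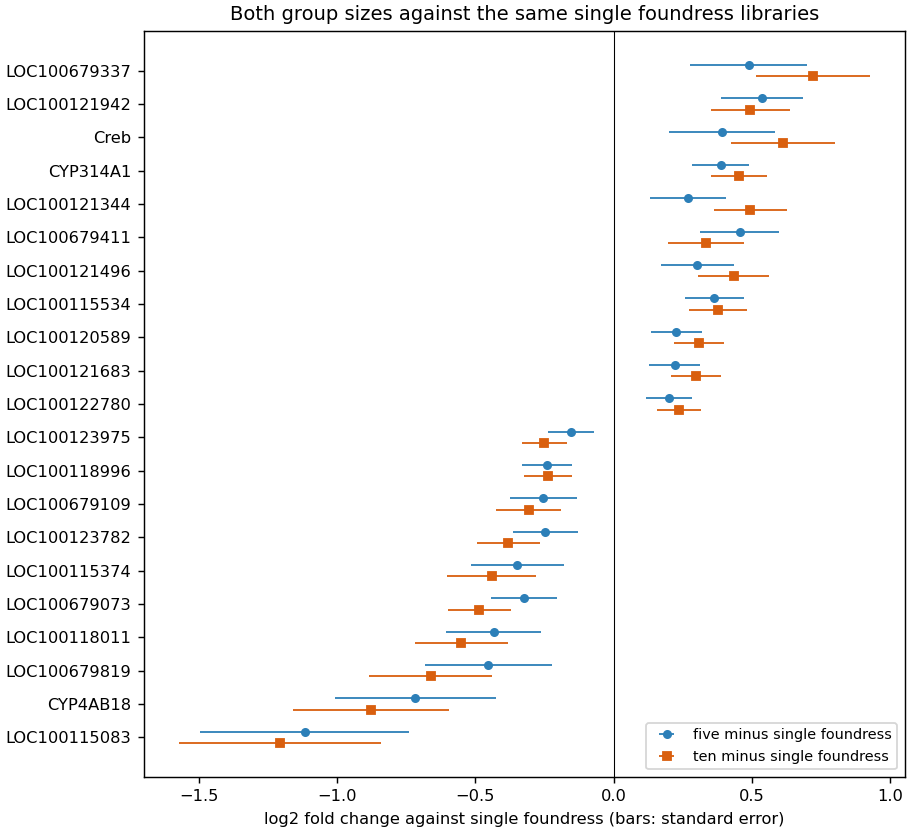
Log2 fold change ± SE of five-foundress and of ten-foundress pools against single-foundress pools, for the 10 genes named as higher, the 10 named as lower and *Creb*. The contrasts share the single-foundress libraries. For each gene both values lie on the same side of 0, which the choice of the 20 genes required, as for *CYP314A1* (0.39 and 0.45) and *LOC100679073* (-0.32 and -0.49).

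Only 18 of the 368 agreeing genes have a symbol other than a placeholder, and this set was defined after its values were seen. *Creb* encodes the cAMP response element binding protein, a transcription factor switched on by neuronal activity through cAMP and calcium and needed for long-term memory in *Drosophila* and mouse. It had 25.9 to 62.3 CPM alone (median 49.3), 53.2 to 75.5 CPM (median 60.5) in five-foundress and 34.7 to 96.7 CPM (median 77.3) in ten-foundress pools. In company 14 of 15 libraries were above the alone median and 7 above every alone library. The log2 fold change was 0.51 (SE 0.17, edgeR unadjusted p = 0.00585, adjusted p = 0.954), with 0.39 (SE 0.19) in five- and 0.61 (SE 0.19) in ten-foundress pools. The neuronal markers *Syt1* and *Para* had log2 fold changes of 0.10 (SE 0.087, edgeR unadjusted p = 0.245) and 0.26 (SE 0.35, edgeR unadjusted p = 0.474). Neither separated the groups, and the part of neuronal content in the difference of *Creb* was not tested. *Daam*, a formin that builds actin filaments, had 31.3 to 43.4 CPM alone (median 35.7) and medians of 42.5 and 42.3 CPM in five- and ten-foundress pools, for a log2 fold change of 0.24 (SE 0.097, edgeR adjusted p = 0.954). *Melk*, a protein kinase known from the cell cycle, had 7.62 to 10.1 CPM alone (median 8.39) and medians of 7.10 and 6.89 CPM in company, for a log2 fold change of -0.22 (SE 0.10). Of its 15 accompanied libraries 10 were below every lone one. *Tomm20*, a receptor of the mitochondrial import pore, had a log2 fold change of 0.78 (SE 0.26) at 8 to 17 reads per library alone and 10 to 40 in company, but its symbol stands on 2 rows. The locus of the microRNA *Mir100* had 21 to 40 reads alone and 9 to 54 in company, for a log2 fold change of -0.53 (SE 0.21), and 10 of 15 accompanied libraries were below every lone one in CPM. Libraries of polyA RNA count the transcript of the locus and not the mature microRNA. *CYP314A1* and *CYP4AB18*, described above, also belong to the 18. The others were 3 odorant receptors, 2 cuticular proteins, a serine protease homologue, a carboxylesterase and 4 transfer RNA genes, the last with 0 to 5 reads per library.

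Odorant receptors, the ion channels by which antennal neurons smell volatile chemicals, were the largest list. Of 211 measured receptors 0 passed an adjusted p of 0.05 in edgeR, and 1 was higher and 2 lower at an unadjusted p below 0.05 (1.42%, against 2.71% of all genes). Their median log2 fold change was 0.03, against 0.01 over all genes. The summed level of the list overlapped between the groups, with 157 to 963 CPM alone (median 622), 259 to 954 CPM (median 374) in five- and 380.3 to 969 CPM (median 599) in ten-foundress pools. *Or66* was the receptor with the smallest p. It had 0 to 5 reads per library alone and 0 to 28 in company, and medians of 0.0902, 0.0960 and 0.253 CPM in single-, five- and ten-foundress pools. Its log2 fold change was 1.68 (SE 0.57, edgeR adjusted p = 0.954), with 1.12 in five- and 2.06 in ten-foundress pools, and 1.12 in the combined comparison with all 23 libraries. *Or276* had 2.96 to 8.46 CPM alone (median 6.25) and medians of 4.55 and 4.49 CPM in company, with 0 of 15 accompanied libraries beyond the alone range, and a log2 fold change of -0.31 (SE 0.14). *Or47*, with 0 to 9 reads per library, was the only one of the 3 that also passed an unadjusted threshold between the group sizes. It had -0.64 in five- and -2.18 in ten-foundress pools (edgeR unadjusted p = 0.0271 between them).

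The lists for taste and for carriers of odours gave 0 calls as well. Of 44 gustatory receptors, which sense contact chemicals, 0 had an unadjusted p below 0.05, and the smallest belonged to *Gr25*, with medians of 0.781 CPM alone and 0.674 and 0.475 CPM in five- and ten-foundress pools (log2 fold change -0.44, SE 0.22, edgeR adjusted p = 0.954, and -0.26 without single-foundress replicate 1). Among 3 odorant binding proteins *OBP77* had medians of 35.8, 38.2 and 49.9 CPM and a log2 fold change of 0.35 (SE 0.32). This was 0.19 without single-foundress replicate 8 and 0.0083 with limma-voom.

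Genes of synapses and neuromodulation gave 0 calls in edgeR. Of 12 subunits of the nicotinic acetylcholine receptor, the main excitatory receptor of the insect brain, 0 had an unadjusted p below 0.05, with a median log2 fold change of -0.05. The smallest p was that of *nAChRa10*, with medians of 16.3, 14.3 and 14.6 CPM (log2 fold change -0.14, SE 0.11, and -0.07 with limma-voom). Of 5 ligand-gated chloride channels 0 had an unadjusted p below 0.05, and *pHCl*, a channel gated by pH, had a log2 fold change of 0.22 (SE 0.23). It was 0.09 without single-foundress replicate 1, 0.13 without replicate 4 and 0.40 without replicate 5, 0.08 with all 23 libraries and 0.41 with limma-voom. Of 11 peptide hormones, dopamine receptors and related genes 0 did, and the smallest p was that of *Akhr*. This gene encodes the receptor for adipokinetic hormone, which mobilises stored fat and sugar. It had medians of 17.0 CPM alone and 23.0 and 18.9 CPM in five- and ten-foundress pools, with log2 fold changes of 0.48 (SE 0.19) and 0.20 (SE 0.18) against alone and 0.34 (SE 0.17) in the combined comparison (0.21 with limma-voom). The 3 genes of sex determination (*Tra*, *Dsx* and *Fru*) had log2 fold changes of -0.07, -0.04 and -0.04. Their SEs were 0.16, 0.10 and 0.12.

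Lists of metabolism and cuticle gave small numbers of unadjusted calls. The respiratory chain, the mitochondrial complexes that drive ATP synthesis, had 69 rows, and some symbols stand on more than 1 of them. Of these rows 56 had a log2 fold change below 0 and 13 above, with a median of -0.08. An unadjusted p below 0.05 was found in 0. Rows with few reads are counted too, and over the 64 rows that averaged 100 counts or more the median was also -0.08. Over all genes 6371 of 13599 were below 0. The summed level had medians of 23013 CPM alone, 21830 CPM in five- and 19777 CPM in ten-foundress pools, with overlapping ranges. The smallest p was that of *Ndufa7*, on a row with 0 to 1 reads per library and 0 in all lone ones, so no fold is given. These subunits share mitochondria and libraries, so they are not separate pieces of evidence. Of 43 other cytochrome P450s, which detoxify and metabolise small molecules, 27 were above 0 and 16 below with a median of 0.20, and 1, *CYP4AB18*, was lower at an unadjusted p below 0.05 (2.33%, against 2.71% of all genes). Their summed level had medians of 4521 CPM alone, 3482 CPM in five- and 5271 CPM in ten-foundress pools, so that the order of the groups did not follow company. Of 29 carboxylesterases and glutathione transferases 1 had an unadjusted p below 0.05 (3.45%, against 2.71%). This was *CCE-E7*, at 14 to 38 reads alone and 9 to 43 in company (log2 fold change -0.62, SE 0.24). Of 45 cuticular proteins 2 did (4.44%, against 2.71%). The apidermin gene *apd-3* had 1.92 to 3.44 CPM alone (median 2.58) and medians of 1.84 and 1.85 CPM in company. Of its 15 accompanied libraries 9 were below every lone one, and the log2 fold change was -0.51 (SE 0.16, edgeR adjusted p = 0.954). *CPR9* had 0 to 2 reads per library alone and 1 to 8 in company.

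Defence and stress genes gave 0 calls in edgeR, and some varied widely between pools of the same group. Of 6 immune genes 0 had an unadjusted p below 0.05. The prophenoloxidase gene *ppo1*, whose product starts melanisation, had 4.24 to 29.4 CPM alone (median 9.40), 4.25 to 58.3 CPM (median 15.1) in five- and 3.61 to 61.8 CPM (median 15.9) in ten-foundress pools. Within each group the highest pool was several times the median, and the log2 fold change of 0.97 had an SE of 0.52 (edgeR adjusted p = 0.954). It was 0.26 with limma-voom and 0.58 with all 23 libraries. Of 51 serine proteases and homologues 1 was higher (*SP48*) and 1 lower (*SPH90*) at an unadjusted p below 0.05 (3.92%, against 2.71% of all genes). *SPH90* had medians of 0.443, 0.352 and 0.222 CPM and a log2 fold change of -0.65 (SE 0.26). With single-foundress replicate 2, which had more of it than any other library, the log2 fold change was -1.85 with an edgeR adjusted p of 0.0345. Of 16 yellow and royal jelly protein genes 0 did, and *Y-x1c* had a log2 fold change of -0.29 (SE 0.15). The chaperone *HSC70*, the ribosomal protein gene *Rpl6* and the maintenance DNA methyltransferase *Dnmt1a* had log2 fold changes of 0.04 (SE 0.11), 0.05 (SE 0.13) and 0.07 (SE 0.13), and that of *Lop1* was -0.09 (SE 0.15). Leaving out single libraries moved *Rpl6* between 0.0014 and 0.12 and *Lop1* between -0.15 and -0.03. The directions of *HSC70*, *Dnmt1a* and *Tra* turned under other settings and none is called.

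**Figure D4:**
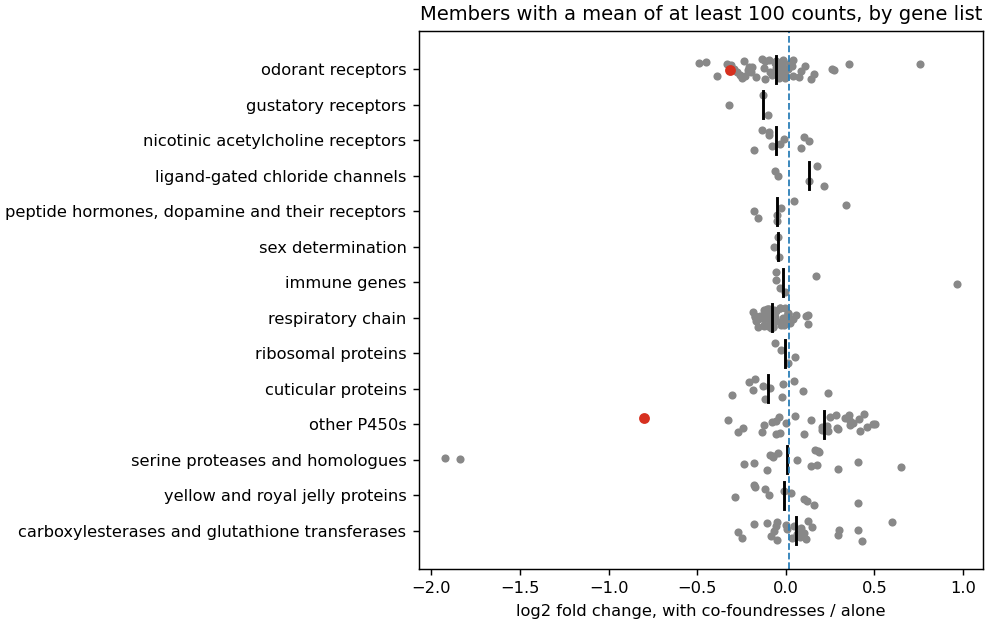
Log2 fold change with co-foundresses relative to alone on the x axis for the members of each gene list that averaged 100 counts or more. Dots are genes, red dots those with an unadjusted edgeR p below 0.05, black lines the median of a list, and the dashed blue line the median of all genes of that abundance (0.02). The medians were -0.05 for odorant receptors, -0.08 for the respiratory chain and 0.22 for other P450s, and 0 genes of any list passed an adjusted p of 0.05.

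**Figure D5:**
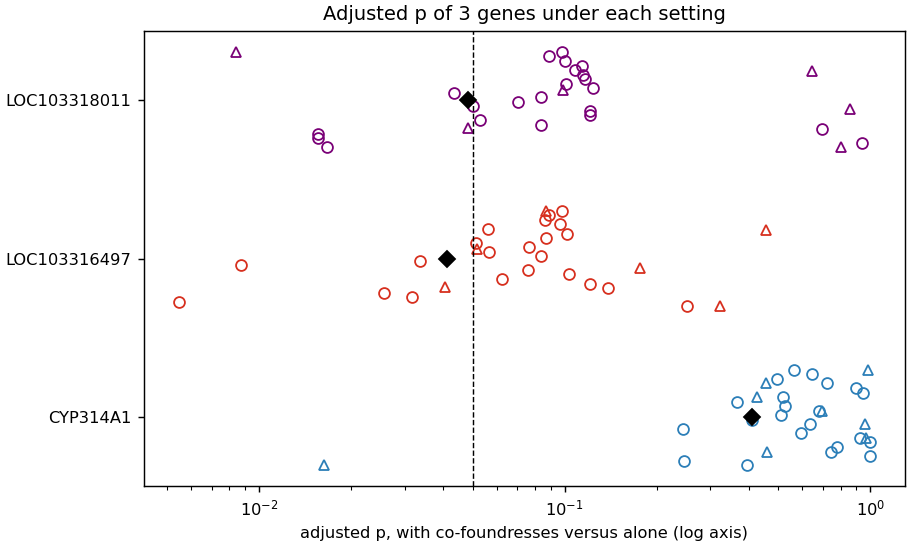
Adjusted p of 3 genes under each alternative, on a log axis. Diamonds are the values given in the text, circles the fits that left out 1 library, triangles the other settings, and the dashed line an adjusted p of 0.05. *LOC103316497* was below the line in 5 of 22 fits that left out 1 library and *LOC103318011* in 4, and *CYP314A1* in 0, with DESeq2 (0.0163) its lowest value.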

How the data were processed

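RNA was measured in pools of 12 female heads. The authors deposited whole-number counts of reads per gene for 23 libraries, without normalization. Per the labels and the study's methods, the authors trimmed reads with cutadapt 1.8.3, aligned them with TopHat2 2.0.14 to the Nvit 2.1 genome and counted them with HTSeq (given as version 6.0.1). Whether counting used the strand is not given in the sources used here, so genes that overlap on opposite strands or have near-identical copies are uncertain. Of the symbols, 74 stand on more than 1 row. The build of the RefSeq gene table used here differs, so no coordinates are given.

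edgeR 4.0.16, run in R 4.3.3, served for the tests (TMM factors, genes with 1 read or more, quasi-likelihood test, Benjamini-Hochberg adjustment over all genes tested at a threshold of 0.05). A factor with 2 levels gave the main comparison and a fit of 3 groups the contrasts by group size. SEs were derived from the fold change and its F statistic. Permutation tests enumerated all choices of libraries on log2 CPM with a prior count of 1. CPM use TMM-scaled totals. Alternatives were limma-voom with quality weights (limma 3.58.1), DESeq2 1.42.0, RLE factors, filterByExpr, a minimum mean of 100 counts, the earlier quasi-likelihood fit, the mean of both sizes in the 3-group fit, all 23 libraries and each library left out. The tests were also run on simulated counts, with changes placed only in genes averaging 100 counts or more. That simulation does not show how changes in genes with few reads are found.

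Named genes were those past the threshold, the 10 smallest p in each direction among genes averaging 100 counts or more and of the same sign in both sizes, the smallest p of all and of each list, *CYP314A1*, *Ecr* and *Creb*. Others were named after their values were seen. Lists planned by product name were matched by symbol, once the symbols had been seen, because the tables used here pair the genes with symbols and no product names. The planned markers of glia and venom glands, and *elav*, *nSyb*, *brp*, *ninaC* and *vasa*, were not among those matched by symbol. The same held for opsins other than *Lop1*, arrestins, vitellogenin, myosin heavy chain, troponins and muscle actin. Members and lists were chosen with earlier results of these data known.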

Additional observations from a re-analysis of the deposited data

Results flagged for a closer look

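Each of the 41 genes named by the rule was examined in 3 groups, and 8 values of single pools stood far from the rest of their group. Chance alone marks about 1 in 20 groups, so several such values are expected by chance, and the count is not a result by itself. *CYP4AB18* had 18.7 CPM in ten-foundress replicate 24, with the next pool at 12.5 CPM. *Ecr* had 26.7 CPM in ten-foundress replicate 18, with the next pool at 13.7 CPM. *LOC100115083* had 20.9 CPM in single-foundress replicate 6, with the next pool at 4.51 CPM, and 4.14 CPM in ten-foundress replicate 17, with the next at 2.80 CPM. Without the former library its log2 fold change was -0.39 in place of -1.16. The gene *ppo1* had 58.3 CPM in five-foundress replicate 10, with the next pool at 27.3 CPM, and 29.4 CPM in single-foundress replicate 6, with the next at 12.8 CPM. *SPH90* had 0.0902 CPM in five-foundress replicate 11, below the next pool at 0.315 CPM, and 0.463 CPM in ten-foundress replicate 18, above the next at 0.257 CPM.

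In single-foundress replicate 2, which the comparison left out, 3 named genes had a level above every one of the other 22 libraries. These levels were scaled over all 23 libraries, so they differ slightly from those given for the 22. *CYP314A1* had 13.0 CPM (next highest 10.4), *Dnmt1a* 47.9 CPM (next 36.5) and *SPH90* 4.41 CPM (next 0.645).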

How the results depend on the processing

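No paired or blocked analysis was possible, because the labels link no pools across groups and do not give the day of set-up. The count of genes past an adjusted p of 0.05 was 2 with edgeR and RLE factors, 1 with DESeq2 and 0 with filterByExpr, with a mean of at least 100 counts, with the earlier quasi-likelihood fit, with the mean of both sizes in the 3-group fit and with limma-voom. With all 23 libraries it was 156, of which 2 were higher and 154 lower with co-foundresses. Single-foundress replicate 2 was the highest of all 23 libraries in 152 of these 154, and 1 of the 156 genes, *LOC103318011*, was also called in the 22 libraries. The 154 genes were called with that library on the alone side, so its top place follows in part from how they were found. The share of all genes in which it is highest was not computed. In the study's own tests the number of called genes did not change when this library was removed. DESeq2 was not run here with all 23 libraries. With 1 library left out the count lay between 0 and 2. Without five-foundress replicate 13, 1 of the 2 was *LOC100122340*, with a mean of 6 counts. The count at an unadjusted p below 0.05 was 182 with a mean of at least 100 counts, 928 with limma-voom and 717 with all 23 libraries, and 312 to 619 with 1 library left out (619 without single-foundress replicate 5, 617 without ten-foundress replicate 17 and 575 without ten-foundress replicate 24). The count with the same sign in both sizes was 182, 928 and 717 in those settings and 311 to 618 with 1 library left out. The count with a p below 0.05 in each size was 29, 186 and 351, and 57 to 135. Filters on low counts removed both genes past the threshold.

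Of the single genes, *Tra* turned to 0.027 with limma-voom and lay between -0.13 and 0.022 (without single-foundress replicate 7) with 1 library left out. *HSC70* turned to -0.016 with limma-voom and to -0.0028, -0.0022 and -0.00089 without single-foundress replicates 5 and 6 and ten-foundress replicate 24, and reached 0.081 with another library left out. *Dnmt1a* turned to -0.011 with limma-voom and -0.093 with all 23 libraries. Of the 41 genes named by the rule, these 3 changed direction under an alternative. Genes named after their values were seen, and the markers other than *Lop1*, were not run under the alternatives. The causes of these shifts were not tested. Genes with fewer than about 10 counts per library give no firm fold change.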
